A study of Drosophila melanogaster with 6 samples.

Results

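A set of 49 regulators of chromatin that are not part of the Tip60 complex was followed in Drosophila larvae that expressed a defective or a normal form of the histone acetyltransferase Tip60. The genes were listed by name in 7 classes, and each was read from a probe set whose platform annotation gives its symbol and no other. Where a gene had several such probe sets, the brightest on average over the arrays was used. All 49 were measured, of 11982 genes with such a probe set, 44 of them by 1 probe set and 5 by several. The gene lid is annotated as Kdm5 and was matched through its RefSeq synonym. RNA came from whole larvae of 3 genotypes: w1118 as control, dTIP60WT, which carries the wild-type enzyme, and dTIP60E431Q, which carries the substitution E431Q in the acetyltransferase domain and was made as a dominant negative. Flies of each line were crossed to 337-GAL4 flies, so that all groups, the control included, carried this ubiquitous driver. The progeny grew for 3 days at 25°C. Each transgene was represented by a single insertion line. Every array held the RNA of its own pool of 35 larvae, and each genotype had 2 arrays, 6 in all.

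Chromatin regulators decide how tightly DNA is packed around histones. Remodelers use ATP to move nucleosomes, acetyltransferases and deacetylases set the charge of histone tails, and histone chaperones carry histones to and from DNA, above all behind the replication fork. In flies, Polycomb group proteins keep developmental genes silent and Trithorax group proteins keep them active. Heterochromatin proteins pack repeats and the regions around centromeres, and insulator proteins separate neighbouring domains.

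The deposited values are linear, model-based expression intensities from dChip, without a stated unit, and they were put on the log2 scale. Across the 6 arrays the median intensity of all probe sets lay between 43.6 and 45.2 in the control and dTIP60WT, and at 51.5 and 51.9 with dTIP60E431Q. Tip60 itself, which reads the transgenes as well as the fly's own gene, measured 30.8 and 29.2 in the control, 5172 and 5464 with dTIP60E431Q, and 3045 and 2755 with dTIP60WT. Its levels followed the labels on every array. It was higher with dTIP60E431Q than with dTIP60WT by 0.88 on the log2 scale (adjusted p = 0.0142), so that the transgenic groups differed in Tip60 transcript level as well as in the substitution. Throughout, a change is a difference of log2 intensities tested in limma over all 18769 probe sets, with p adjusted by Benjamini-Hochberg, and a gene passed where the adjusted p was below 0.05. Values given array by array are intensities, SE is the standard error of a change, and the arrays of a genotype are named replicate 1 and replicate 2.

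With dTIP60E431Q, most of the chromatin regulators that passed fell, and by less than a factor of 2. Of the 49 members, 12 fell and 3 rose against the control. The genes that fell were the remodeler subunits brm, mor, Snr1 and Nurf-38, the deacetylase HDAC1, the Polycomb gene Psc, wds, the heterochromatin protein gene Su(var)205, the histone chaperones Caf1-55 and asf1, and the DNA-binding factors Trl and z. The genes that rose were Ada2b, Pc and trx. The 15 that passed are 30.6% of the members, and 23.6% of all probe sets passed, as did 28.4% of all genes read from 1 probe set each and 35.0% of the 9028 genes at least as bright as the dimmest member. The total was therefore close to the background. By direction, 24.5% of the members fell, against 11.7% of all probe sets and 18.1% of those brighter genes, and 6.12% rose, against 11.9% and 16.9%. Before adjustment 23 members had a p below 0.05 in this fit, as did 7009 of the 18769 probe sets and 4650 of the 9028 brighter genes. After adjustment 15 members passed. The count rests on all 6 arrays fitted together: it was 0 without either control array, 1 without any other array, and 1 when only the 4 arrays of the comparison were fitted. These fits could not turn the direction of any of the 15, since the mutant and control arrays of each did not overlap. Ada2b and Pc also changed at least 2-fold; with that added, 8.39% of all probe sets rose and 5.99% fell.

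Taken without regard to the test, 37 members had a change below 0 and 12 above. Their median change was -0.30, against 0.04 over all probe sets and 0.01 over the genes at least as bright as the dimmest member. When every array was divided by its own median, the members' median was -0.53 against -0.20 over all probe sets. Then 20 members passed, 2 higher and 18 lower. This scaling moved all probe sets down with dTIP60E431Q, so these counts cannot be set against the shares of the main fit. The share of all probe sets that passed under this scaling is not given here, so the counts do not set the members apart. Both dTIP60E431Q arrays lay below both control arrays for 26 members (53.1%, against 30.3% of all probe sets) and above them for 9 (18.4%, against 33.8%), and for 14 the arrays overlapped. The dTIP60E431Q arrays were not alike over these genes. Replicate 1 was below replicate 2 for 41 of the 49 members (83.7%), against 56.1% of all probe sets and 62.9% of the genes at least as bright as the dimmest member. The median change of the members was -0.12 without replicate 1 and -0.41 without replicate 2.

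**Figure D1:**
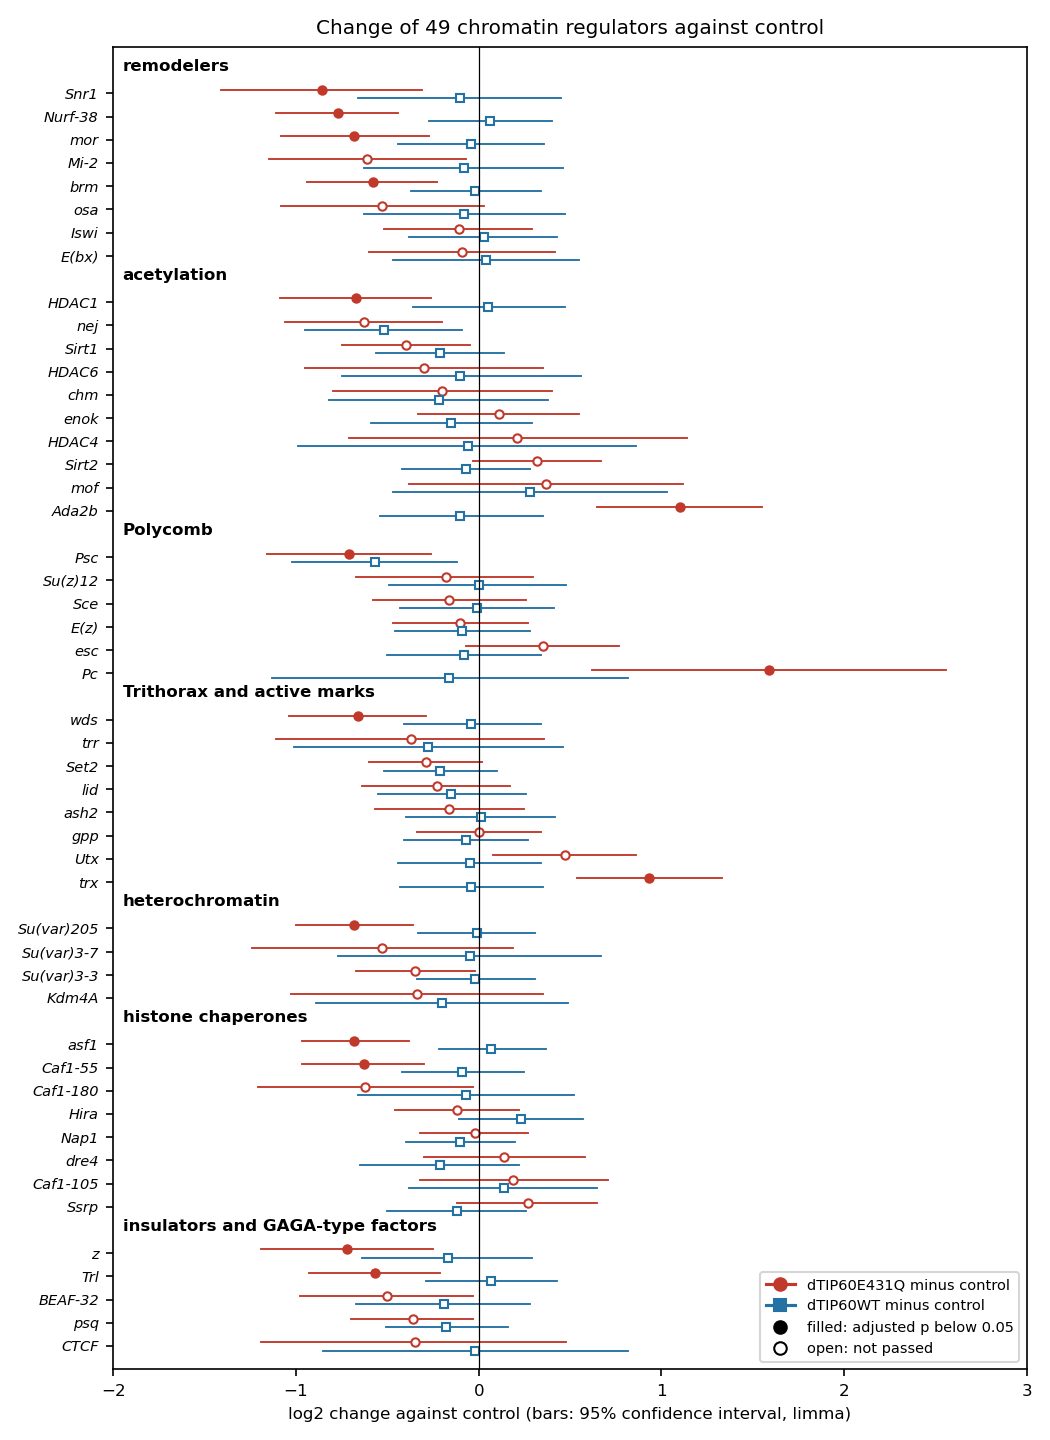
Log2 change of each of the 49 chromatin regulators against the control, for dTIP60E431Q (red circles) and dTIP60WT (blue squares), grouped by class, with 95% confidence intervals from limma as bars. Filled symbols mark an adjusted p below 0.05; 12 red symbols are filled to the left of 0 and 3 to the right, and 0 blue symbols are filled.

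**Figure D2:**
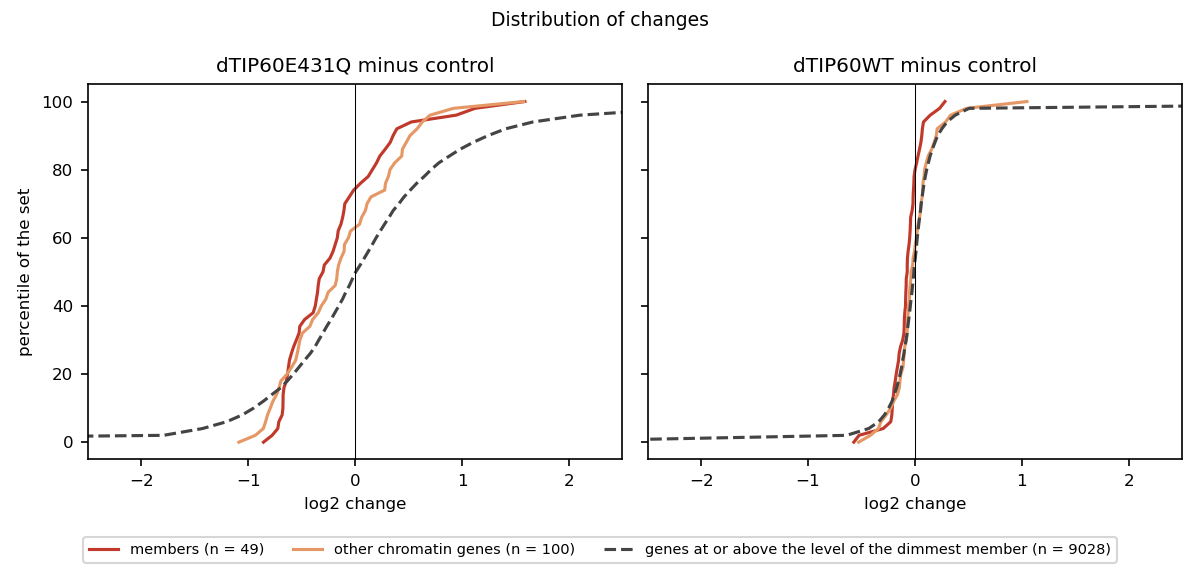
Log2 change (horizontal axis) at each percentile (vertical axis) of the 49 members, of 100 other chromatin genes and of the 9028 genes at least as bright as the dimmest member, for dTIP60E431Q on the left and dTIP60WT on the right, both against the control. With dTIP60E431Q the middle of the members' curve lies to the left (median -0.30 against 0.01), while the members' range, -0.86 to 1.59, is narrower than that of all genes, whose ends run past the axis.

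Genes of dividing cells and of larval stage and tissue moved in the same arrays. Of 11 measured genes of DNA replication and the cell cycle, 9 fell with dTIP60E431Q and 0 rose, with a median change of -0.97. Their summed intensity was 2173 and 2102 in the control, 1043 and 1022 with dTIP60E431Q, and 2157 and 2079 with dTIP60WT. Within this list PCNA, the sliding clamp of DNA polymerases, measured 588 and 566 in the control and 176 and 183 with dTIP60E431Q (change -1.68, adjusted p = 0.00566), and Mcm3, part of the replicative helicase, changed by -1.53. The list of fat body and storage genes, summed over the 4 measured, stood at 26061 and 18989 in the control, 180 and 174 with dTIP60E431Q, and 20224 and 20181 with dTIP60WT; in this list Lsp2 and Fbp2 fell, and Yp1, a yolk protein gene of adult females, passed as higher at intensities of 7.52 to 15.04. In muscle 0 rose and 4 fell of 8 (summed 65278 and 66893 in the control, 42453 and 44483 with dTIP60E431Q). Of the neuronal genes 3 rose and 0 fell of 8 (summed 1182 and 1152 in the control, 1795 and 1643 with dTIP60E431Q). In this sum nrv3 weighed most, with 463 and 503 in the control and 1024 and 847 with dTIP60E431Q. The neuronal gene elav, named after its values were seen, had 278 and 274, then 269 and 289 (change 0.01). Of 6 midgut genes 2 rose, of 7 glue genes 1 fell and of 5 haemocyte genes 0 passed. Each list had signal in every array. Arrays of 1 genotype also stood apart in late larval genes, named after their values were seen: control replicate 1 was above replicate 2 in the glue gene Sgs3 (201 and 8.31) and the fat body gene Fbp1 (1329 and 7.09), and dTIP60WT replicate 2 above replicate 1 (343 and 1.93, 1015 and 5.01). How much of any change below goes with these markers was not tested. Genotype and developmental stage cannot be told apart here, and in whole larvae neither can fewer cells of a type and less RNA per cell.

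Remodelers had more falls than any other class of members: 4 of the 8 fell with dTIP60E431Q and 0 rose. Of all probe sets 11.7% fell, and of the genes at least as bright as the dimmest member 18.1%. Among 11 remodeler genes outside the members 2 fell, and 4 had a change above 0. All 8 members of the class had a change below 0, with a median of -0.60. Nurf-38, a pyrophosphatase that is also a subunit of the NURF complex, measured 3715 and 4141 in the control, 2330 and 2259 with dTIP60E431Q, and 3966 and 4237 with dTIP60WT. The mutant arrays lay well below the other 4, which overlapped, and the gene fell 1.71-fold (change -0.77, SE 0.13, adjusted p = 0.0201). The other 3 members that fell belong to the Brahma complex, the fly SWI/SNF. Its scaffold subunit mor had 413 and 403 in the control, 230 and 283 with dTIP60E431Q, and 402 and 390 with dTIP60WT. The drop was 1.60-fold (change -0.68, SE 0.15, adjusted p = 0.0408), with the dTIP60WT arrays just below the control. For brm, the ATPase of the complex, the control arrays read 385 and 412, the dTIP60E431Q arrays 252 and 281, and the dTIP60WT arrays 411 and 377. Control and dTIP60WT overlapped, and brm fell as well (change -0.58, SE 0.13, adjusted p = 0.0430). Snr1, its SNF5-type subunit, read 265 and 275 in the control, 125 and 178 with dTIP60E431Q, and 250 and 253 with dTIP60WT. Here the mutant arrays were farther apart, the lower being replicate 1, and the change was -0.86 (SE 0.21, adjusted p = 0.0490).

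The signature subunit of the BAP form of that complex, osa, measured 238 and 239 in the control and 140 and 196 with dTIP60E431Q, a change of -0.53 that did not pass (adjusted p = 0.148). Mi-2, the ATPase of the NuRD complex, measured 427 and 419 in the control and 234 and 328 with dTIP60E431Q, and did not pass either (change -0.61, adjusted p = 0.105). Both genes had mutant arrays that differed from each other yet lay below the control. Iswi, the ATPase that NURF shares with other complexes, and E(bx), the large subunit of NURF, overlapped with the control, with changes of -0.11 (95% confidence interval -0.52 to 0.29) and -0.09 (-0.60 to 0.42). Whether the changes of these NURF subunits differ from that of Nurf-38 was not tested.

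**Figure D3:**
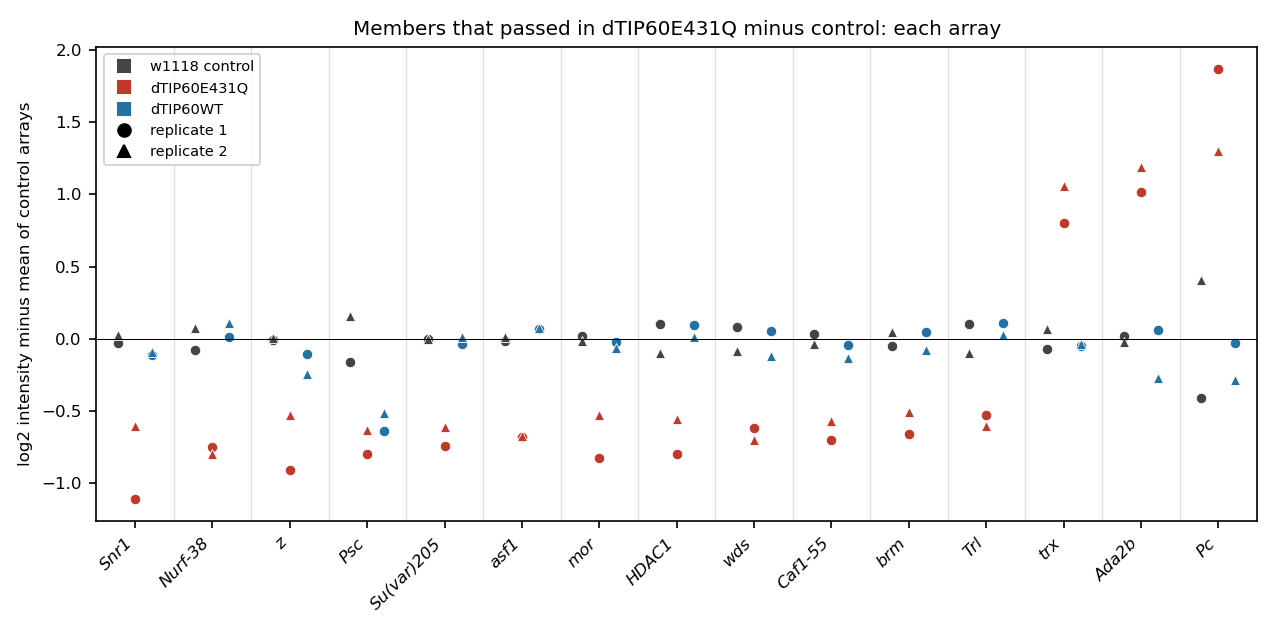
Log2 intensity of each array minus the mean of the control arrays for the 15 chromatin regulators that passed with dTIP60E431Q against the control, ordered by change; colour marks the genotype, circles replicate 1 and triangles replicate 2. The mutant arrays lie below the control for 12 genes and above it for Ada2b, Pc and trx, and only for Psc do the dTIP60WT arrays lie beside the mutant arrays.

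Among the genes of histone acetylation, 1 rose and 1 fell of 10, and the median change was -0.05. Over all probe sets 11.9% rose and 11.7% fell. Ada2b, a subunit of the SAGA acetyltransferase complex that works with Gcn5, measured 106 and 103 in the control, 211 and 238 with dTIP60E431Q, and 109 and 86.8 with dTIP60WT. Both mutant arrays were far above the rest, a rise of 2.15-fold (change 1.10, SE 0.17, adjusted p = 0.0172), and Ada2b had the smallest p of all members. The deacetylase HDAC1, also known as Rpd3, a shared subunit of several repressor complexes, had 309 and 269 in the control, 166 and 196 with dTIP60E431Q, and 308 and 291 with dTIP60WT. Control and dTIP60WT overlapped above the mutant arrays, and HDAC1 fell 1.60-fold (change -0.67, SE 0.15, adjusted p = 0.0435).

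The fly CBP gene nej, an acetyltransferase and coactivator, came next by p and did not pass. It read 156 and 134 in the control, 90.1 and 97.00 with dTIP60E431Q, and 110 and 92.2 with dTIP60WT, so that both transgenic groups lay below the control (change -0.63 with dTIP60E431Q, adjusted p = 0.0568). Sirt1, a deacetylase that uses NAD, measured 255 and 249 in the control and 180 and 203 with dTIP60E431Q (change -0.40, adjusted p = 0.101). With dTIP60WT it read 227 and 210, also below the control (change -0.21). The MYST acetyltransferases, the family to which Tip60 belongs, overlapped with the control: mof, which acts in dosage compensation, changed by 0.37, enok by 0.11 and chm by -0.20 (adjusted p from 0.401 to 0.682). Of the other deacetylases, HDAC6, which acts on tubulin, changed by -0.30, HDAC4 by 0.21 and Sirt2 by 0.32, and 0 of these 3 passed. After each array was divided by its median the sign turned for enok (-0.12) and HDAC4 (-0.02).

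The Polycomb group held the largest rise among the members, in Pc, and a fall in Psc. Both encode subunits of the same repressive complex, in which Pc reads the methyl mark on histone H3. Pc measured 30.03 and 53.02 in the control, 146 and 98.3 with dTIP60E431Q, and 39.1 and 32.8 with dTIP60WT. The control and the mutant arrays were each spread widely without overlap, and the rise was 3.01-fold (change 1.59, SE 0.36, adjusted p = 0.0436). Pc no longer passed after median scaling (change 1.36, adjusted p = 0.0640) or quantile normalization (1.43, adjusted p = 0.0671). For Psc the control arrays read 31.1 and 38.8, the dTIP60E431Q arrays 19.98 and 22.4, and the dTIP60WT arrays 22.3 and 24.4. All 4 transgenic arrays were below both control arrays, and the change with dTIP60E431Q was -0.71 (SE 0.17, adjusted p = 0.0469). Psc was the dimmest member and is absent where the dimmest 40% of probe sets are left out.

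Sce, the ubiquitin ligase of that complex, changed by -0.16 (adjusted p = 0.525). The second Polycomb complex places the methyl mark. Its enzyme gene E(z) had 102 and 100 in the control, 87.4 and 102 with dTIP60E431Q, and 99.5 and 90.8 with dTIP60WT, a change of -0.10 with a 95% confidence interval of -0.47 to 0.27. For its partner esc the control arrays were at 50.7 and 54.9 and the mutant arrays at 60.4 and 74.9 (change 0.35, adjusted p = 0.187). Su(z)12, a further core subunit, changed by -0.18. In the Polycomb class 1 rose and 1 fell of 6, with a median of -0.13. The shares over all probe sets were 11.9% higher and 11.7% lower.

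In the Trithorax class, which here takes in enzymes of active marks, trx rose and wds fell. The histone H3 methyltransferase gene trx measured 126 and 139 in the control, 231 and 276 with dTIP60E431Q, and 128 and 129 with dTIP60WT. Every control and dTIP60WT array was far below the mutant arrays, and trx rose 1.91-fold (change 0.93, SE 0.15, adjusted p = 0.0187). The gene wds, the fly WDR5, encodes a scaffold shared by the methyltransferase complexes of this group and other complexes. It read 137 and 122 in the control, 84.3 and 79.6 with dTIP60E431Q, and 134 and 119 with dTIP60WT. Control and dTIP60WT overlapped, and wds fell 1.58-fold (change -0.66, SE 0.14, adjusted p = 0.0361).

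Utx, the demethylase that removes the Polycomb mark, measured 64.8 and 74.7 in the control and 89.6 and 104 with dTIP60E431Q, and did not pass (change 0.47, adjusted p = 0.0899). Set2, which methylates histone H3 in transcribed genes, measured 139 and 131 in the control and 110 and 112 with dTIP60E431Q. Again it did not pass (change -0.29, adjusted p = 0.150). With dTIP60WT it read 119 and 115, below the control as well (change -0.21). The remaining 4 were ash2, a subunit of the methyltransferase complexes, at -0.16, the methyltransferase gene trr at -0.37, gpp, the fly Dot1, at -0.00, and the demethylase gene lid at -0.23 (adjusted p from 0.340 to 0.986). In all 1 rose and 1 fell of 8, with a median of -0.20, where 11.9% of all probe sets rose and 11.7% fell.

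Of the heterochromatin genes 1 fell and 0 rose of 4, and all 4 had a change below 0. Over all probe sets 11.7% fell. Among 15 heterochromatin genes outside the members 3 fell and 6 had a change above 0, with a median of -0.05. Su(var)205 encodes HP1a, the protein that coats heterochromatin. Its intensities were 739 and 741 in the control, 442 and 485 with dTIP60E431Q, and 722 and 748 with dTIP60WT. The arrays of each genotype lay close together, and the gene fell 1.60-fold (change -0.68, SE 0.12, adjusted p = 0.0238). Su(var)3-3, the fly Lsd1 demethylase, measured 87.8 and 82.5 in the control and 63.9 and 70.1 with dTIP60E431Q (change -0.35, adjusted p = 0.117). The zinc finger gene Su(var)3-7, whose product binds HP1a, measured 26.5 and 42.9 in the control and 21.7 and 25.4 with dTIP60E431Q (change -0.53, adjusted p = 0.240), with control arrays that differed from each other by more than this change. Kdm4A, a demethylase, changed by -0.34 and overlapped.

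Of the 8 histone chaperones 2 fell and 0 rose, and the class median was -0.07. That is 25.0% lower, against 11.7% of all probe sets and 18.1% of the genes at least as bright as the dimmest member. The chaperone of histones H3 and H4 encoded by asf1, which hands them over during replication, measured 284 and 289 in the control, 179 and 180 with dTIP60E431Q, and 301 and 302 with dTIP60WT. The arrays of each genotype lay close together, those of dTIP60WT just above the control, and asf1 fell 1.60-fold (change -0.68, SE 0.11, adjusted p = 0.0199). Caf1-55, which is shared by chromatin assembly factor 1, Polycomb, NURF and deacetylase complexes, read 751 and 715 in the control, 451 and 495 with dTIP60E431Q, and 713 and 668 with dTIP60WT. With dTIP60WT both arrays were slightly below the control, and with dTIP60E431Q the drop was 1.55-fold (change -0.63, SE 0.12, adjusted p = 0.0305).

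The other subunits of chromatin assembly factor 1 did not pass. Caf1-180, its large subunit, measured 80.1 and 110 in the control and 54.5 and 68.7 with dTIP60E431Q (change -0.62, adjusted p = 0.121). Caf1-105, with 38.4 and 37.8, then 49.1 and 38.6, changed by 0.19 (adjusted p = 0.531). It turned to -0.04 after median scaling and to -0.02 after quantile normalization. Nap1, a chaperone of histones H2A and H2B and the brightest probe set of the class, had 1756 and 1811 in the control, 1734 and 1773 with dTIP60E431Q, and 1687 and 1642 with dTIP60WT. Its change was -0.02, with a 95% confidence interval of -0.32 to 0.27. The FACT complex, which opens nucleosomes for polymerases, had positive changes in both subunits, dre4 at 0.14 and Ssrp at 0.27, and Hira, which deposits histones outside replication, changed by -0.12. None of these 3 passed (adjusted p from 0.258 to 0.591), and dre4 turned to -0.09 after median scaling. Of the 11 replication and cell cycle genes 9 fell, and whether the falls of asf1 and Caf1-55 go with theirs was not tested.

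All 5 insulator and GAGA-type factors had a change below 0, and 2 fell, with a class median of -0.50. Of all probe sets 11.7% fell, as did 18.1% of the genes at least as bright as the dimmest member. Among 14 insulator and related genes outside the members 3 fell, and 4 had a change above 0. Trl encodes the GAGA factor, which keeps promoters open, and measured 377 and 328 in the control, 244 and 231 with dTIP60E431Q, and 379 and 359 with dTIP60WT. Mutant arrays were below all others, a drop of 1.48-fold (change -0.57, SE 0.13, adjusted p = 0.0471). The gene z, or zeste, which encodes a DNA-binding protein of Polycomb response elements, read 120 and 121 in the control, 64.2 and 83.5 with dTIP60E431Q, and 112 and 102 with dTIP60WT. The order was control, dTIP60WT and dTIP60E431Q without overlap, and z passed at the edge of the threshold (change -0.72, SE 0.17, adjusted p = 0.0498).

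BEAF-32, a boundary factor, had 176 and 203 in the control, 118 and 152 with dTIP60E431Q, and 169 and 162 with dTIP60WT (change -0.50, adjusted p = 0.120). For psq, or pipsqueak, which binds the same GAGA sequence as the GAGA factor, the control arrays were at 51.6 and 52.2. The mutant arrays of psq were at 38.5 and 42.1 (change -0.36, adjusted p = 0.110), and the dTIP60WT arrays, also below the control, at 47.8 and 43.99. CTCF, an insulator protein of the bithorax region among others, changed by -0.35 (adjusted p = 0.477).

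Wild-type Tip60 gave no call among the members. In limma 0 of the 49 passed with dTIP60WT against the control, where 0.00533% of all probe sets passed, that of Tip60 alone. At an unadjusted p below 0.05 there were 2 members, Psc and nej, and 1051 of the 18769 probe sets. The smallest adjusted p of a member was 0.818, and the methods' t-test passed 0 members at its unadjusted p. Psc changed by -0.57 (SE 0.17) and nej by -0.52 (SE 0.16), both sets of dTIP60WT arrays lying below the control. The other changes ran up to 0.28, in mof. The 95% confidence interval of the change lay within a factor of 2 either way for 45 of the 49, and the interval reached a median of 0.42 to either side. Changes were mostly small and negative: 39 of 49 were below 0, with a median of -0.07 against -0.00 over all probe sets. Both dTIP60WT arrays were below both control arrays for 18 members (36.7%, against 16.3% of all probe sets) and above for 2 (4.08%, against 16.3%). This too moved with the array, since replicate 1 was below replicate 2 in 13 of 49 members (26.5%). The share was 46.6% over all probe sets and 42.5% over the genes at least as bright as the dimmest member. The members' median was -0.12 without replicate 1 and -0.02 without replicate 2.

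Set against dTIP60WT in place of the control, dTIP60E431Q gave 12 members that passed, 3 higher and 9 lower. That is 24.5% of the members, and 24.0% of all probe sets passed in this comparison, 12.2% higher and 11.7% lower, as did 28.9% of all genes and 35.8% of those at least as bright as the dimmest member. Ada2b and Pc again changed at least 2-fold, where 8.78% of all probe sets passed and rose that far and 6.05% fell. Since both comparisons use the same mutant arrays, they are not independent, and the values stand side by side. The rises were 1.20 for Ada2b against 1.10 from the control, 1.74 against 1.59 for Pc, and 0.97 against 0.93 for trx. Nurf-38 fell by 0.84 against dTIP60WT and by 0.77 against the control, asf1 by 0.75 and 0.68, HDAC1 by 0.73 and 0.67, and Su(var)205 by 0.67 and 0.68. The drops of Trl, mor, wds, brm and Caf1-55 against dTIP60WT lay between 0.55 and 0.64 on the log2 scale. Of the genes that fell against the control, 3 did not pass here: Snr1 (-0.75, adjusted p = 0.0661), z (-0.55, adjusted p = 0.0937) and Psc (-0.14, adjusted p = 0.599). For nej the change was -0.11 in this comparison (adjusted p = 0.675). Mutant arrays lay below both dTIP60WT arrays for 22 members (30.9% of all probe sets did) and above for 10 (32.7% did). The median change was -0.15, and it ran from -0.29 without dTIP60E431Q replicate 2 to -0.05 without dTIP60WT replicate 1; it was -0.06 without dTIP60E431Q replicate 1 and -0.25 without dTIP60WT replicate 2. Without a dTIP60E431Q array 1 member passed, which for replicate 2 was not among the 12, without a dTIP60WT array 0, and without a control array 5.

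Several probe sets existed for 5 members, and for gpp, CTCF and trr their changes differed, though mostly through dim sets. The brightest set of gpp changed by -0.00 with dTIP60E431Q, and its other sets by -0.06, 0.23 and 1.80. The last, the dimmest, measured 7.28 and 11.8 in the control, 31.5 and 33.2 with dTIP60E431Q, and 10.6 and 8.94 with dTIP60WT (adjusted p = 0.0174). Its mean outside the mutant lay below the 20th percentile of all values, 11.5, so that the size of this change is uncertain. In CTCF the second set had 27.4 and 27.1 in the control, 11.3 and 8.56 with dTIP60E431Q, and 19.4 and 13.5 with dTIP60WT, and fell to the same dim level (change -1.47, adjusted p = 0.0217), whereas the third and dimmest changed by 0.25 and the brightest by -0.35. Those of trr changed by -0.37 and 0.46. The second set of nej, at 51.4 and 46.9 in the control, 18.2 and 24.8 with dTIP60E431Q, and 36.96 and 22.4 with dTIP60WT, changed by -1.21 (adjusted p = 0.0561), in the direction of the first. Both sets of dre4 stayed within 0.14 of the control with dTIP60E431Q. Which transcripts each set detects was not examined. The probe sets of brm, trx and Trl carry the suffix that Affymetrix gives to probes shared by several transcripts, and other genes could add to their signal.

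**Figure D4:**
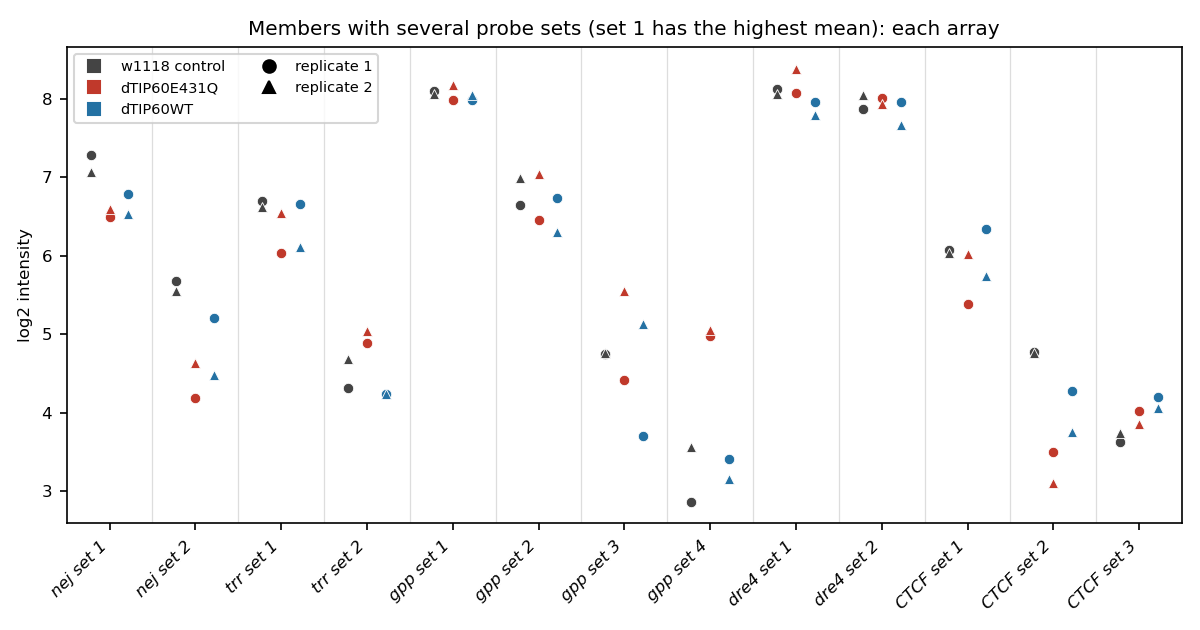
Log2 intensity on each array for every single-symbol probe set of the 5 members with several, numbered from the brightest; colour marks the genotype, circles replicate 1 and triangles replicate 2. Set 4 of gpp is higher and set 2 of CTCF lower with dTIP60E431Q, while set 1 of each changes by -0.00 and -0.35.

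Chromatin genes outside the list, chosen by class for comparison, passed about as often as all genes did, and more of them fell than rose. Of 133 listed, 100 were measured, and with dTIP60E431Q 4 rose and 23 fell (27.0%), with a median change of -0.17. That share lies between the 23.6% of all probe sets and the 28.4% of all genes that passed. Histone chaperones had the highest share of any class, with 6 lower and 0 higher of 9, where 11.7% of all probe sets fell. This list had lost Mcm10 and bip2 after their values were seen, so the ranking rests on an edited list. Among the chaperones that are members 2 of 8 fell. Set, a chaperone and phosphatase inhibitor, had 880 and 859 in the control, 425 and 434 with dTIP60E431Q, and 834 and 831 with dTIP60WT. Its change was -1.02 (adjusted p = 0.00936), and Nph, a nucleophosmin, changed by -0.74. Of 11 remodeler genes 2 fell, Bap60 (-0.90), a core subunit of the Brahma complex, and Ino80 (-0.82), a remodeler ATPase. In acetylation 2 rose and 6 fell of 25, with CoRest, a partner of Lsd1 and HDAC1, at -1.09 and the sirtuin Sirt4 at -0.79. The Polycomb list had 1 rise, corto (0.62), and 1 fall, l(3)73Ah (-0.77), of 10. Of 16 Trithorax and active mark genes 1 rose and 2 fell. The rise was in mnn1, the fly menin, from 8.92 and 8.27 to 28.7 and 22.9 (adjusted p = 0.00951), from control values below the 20th percentile of all values, so that no size is given. PR-Set7, a histone H4 methyltransferase, changed by -0.93. Heterochromatin genes had 3 falls of 15, with D1, which binds satellite repeats, at -0.82 and HP1c at -0.84. Of 14 insulator and related genes 3 fell, with Ibf2, an insulator binding factor, at -0.86 and lola, a BTB zinc finger factor, at -0.59. With dTIP60WT 0 of the 100 passed (smallest adjusted p = 0.671), and 3 had an unadjusted p below 0.05.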

How the data were processed

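The authors read Affymetrix Drosophila Genome 2.0 arrays with GCOS, and dChip then served for normalization. The deposited values, linear intensities of 18952 probe sets, were taken to be these model-based indexes. The baseline array, the probe model and the software versions are not given in the sources used here. The methods give the larvae as pools of 35, so arrays of a genotype are separate pools. Here 183 control probe sets of Affymetrix were dropped, and log2 of the intensities was taken without pseudocount, floor or filter.

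The remaining 18769 probe sets were fitted in limma 3.58.1 (R 4.3.3, statmod 1.5.0) with 1 mean per genotype over all 6 arrays, which leaves 3 residual degrees of freedom. The spread was moderated by eBayes, with 1.43 prior degrees of freedom and a median residual SD of 0.241. P-values were adjusted over all of them by Benjamini-Hochberg, and a gene passed at an adjusted p below 0.05 with no fold threshold. With 2 arrays per genotype, their number limits the precision. The procedure was run on simulated data with planted changes larger than that of any member. That run therefore does not bear on calls of the size seen here. Symbols come from the platform annotation, under which 13647 probe sets have 1 symbol, 402 have several and 4720 have none. Alternatives were a replicate block, a 2-group fit, trend and robust options, median scaling, quantile normalization, a pseudocount of 16, a floor at the 20th percentile, a filter on the dimmest 40%, a fold of at least 2, the mean over probe sets, the methods' t-test and each array left out in turn. What is called the methods' t-test was an unequal-variance t-test on the linear intensities, run in place of the dChip function. The study's further filter on a confidence bound of the fold change was not applied. The replicate numbers did not pair the arrays.

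The members and lists were chosen with earlier results of these data known. From the comparison list Mcm10 and bip2, which are not histone chaperones, were taken out after their values were seen. Members are described by class, with all 6 values for those that passed and for up to 2 others a class by smallest p or highest level. Of the comparison and marker lists, up to 2 genes each by smallest p are named. Further ones, such as elav and the late larval genes, were added after their values were seen. No promoter or protein sequences were used here. Plots were made with Python 3.11.15 and matplotlib 3.10.9.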

Additional observations from a re-analysis of the deposited data

How the results depend on the processing

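The number of members that passed depended on how the spread was estimated. The shares of all probe sets that passed under each alternative are not given beside the counts below. Those counts therefore do not set the members, or the other chromatin genes, apart from the rest. No passing member changed direction under any alternative run, but most of these could not have shown it. The replicate block, the 2-group fit, the eBayes options and the filter leave the change itself as it was. Leaving out 1 array cannot turn genes whose arrays do not overlap, as with every passing member. With dTIP60E431Q against the control, 15 members passed, 1 with only the 4 arrays of the comparison fitted, 2 with the replicate number as a block, and 2 (Ada2b and Pc) with a fold of at least 2 as well. By the methods' t-test, in the form run here, 0 passed at the study's p and fold thresholds. It gave 5 at its unadjusted p with no fold (chosen after the data were seen) and 0 after Benjamini-Hochberg. The count was 15 to 22 under the other 7 settings, and 0 to 1 with 1 array left out. Against dTIP60WT, 12 passed, 5 in the 2-group fit, 4 with the replicate block, 2 with a fold of at least 2, 20 with the dim probe sets filtered out, 1 and 0 by the t-test at the study's threshold and after adjustment, and 0 to 5 with 1 array left out. Of the 100 other chromatin genes 27 passed, 9 with the replicate block and 0 to 11 with 1 array left out; median scaling gave 1 higher and 33 lower. The replicate numbers do not pair the arrays (correlations of the replicate differences -0.013, -0.012 and -0.007), and the block and the left-out array each take degrees of freedom from a fit that has 3. With dTIP60WT against the control 0 members passed under every setting run, and Tip60 no longer passed in 8 of 15.

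The members' median with dTIP60E431Q against the control, -0.30, was -0.53 after median scaling and ran from -0.41 to -0.12 with 1 array left out. Against dTIP60WT it was -0.15, -0.36 after median scaling, -0.33 after quantile normalization and -0.29 to -0.05 with 1 array left out. With dTIP60WT against the control it ran from -0.12 to -0.02. After median scaling 14 of the 15 members still passed, all but Pc, and 6 more did: Mi-2, nej, Sirt1, Set2, Su(var)3-3 and psq. This scaling moved all probe sets down with dTIP60E431Q, those of the other chromatin genes included. Of the 34 members that did not pass, 7 changed sign when 1 array was left out. The promoter motifs were not run. Dim probe sets, such as those of Psc, Pc and mnn1 and the fourth of gpp, limit what can be read at low signal.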
